A study of Danio rerio with 9 samples.

Results

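9 genes of the fibroblast growth factor (FGF) pathway were followed in zebrafish embryos with raised or blocked BMP signaling. They were taken by gene name from the 41977 gene rows, and all 9 were found and were abundant enough to be tested. 4 encode FGF ligands (*fgf3*, *fgf8a*, *fgf17* and *fgf24*), 4 encode feedback inhibitors of the pathway (*spry2*, *spry4*, *dusp6* and *il17rd*), and *etv4* encodes an Ets transcription factor. The question was whether differences in ligand transcripts are accompanied by differences in the feedback inhibitors and the Ets target.

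FGF ligands are secreted proteins that activate receptor tyrosine kinases and, through Ras, Raf and Mek, the kinase Erk. In the zebrafish gastrula they act from the embryonic margin, where they are needed for mesoderm, and FGF signaling restricts expression of *bmp* genes on the dorsal side. Transcription of *spry*, *dusp6*, *il17rd* and *etv4* is induced by the pathway itself, so these genes are widely used as readouts of FGF activity, and all but *etv4* act to dampen it.

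All embryos were wild type of the TE strain, had their chorions removed with Pronase and were frozen whole at 6.75 hpf, early in gastrulation, timed by siblings that had not been injected. *bmp*-overexpressing embryos had received 10 pg of *bmp2b* mRNA at the one-cell stage, *chordin*-overexpressing embryos 100 pg of mRNA for the secreted BMP inhibitor Chordin, and uninjected embryos nothing. Each group had 3 samples of 10 pooled embryos. None of the 9 samples received a control mRNA, so that injection as such and the mRNA injected cannot be told apart in a comparison with uninjected embryos. The labels do not say whether samples of a group came from separate clutches, and p-values measure only the spread between these samples.

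The 9 libraries held between 8861308 and 22372856 counts. Levels are given as CPM (counts scaled to a common library total with TMM factors over the 9 libraries) and differences as log2 fold changes from limma. Genes with an adjusted p under 0.05 (Benjamini-Hochberg, over every gene tested in that comparison) were called. Levels of the 2 genes injected as mRNA matched the labels. *bmp2b* averaged 828 ± 104 CPM in *bmp*-overexpressing and 107 ± 9.18 CPM in uninjected embryos (SD, n = 3 each). *chd* (*chordin*) averaged 1890 ± 321 CPM in *chordin*-overexpressing and 209 ± 13.7 CPM in uninjected embryos (SD, n = 3 each). In injected embryos these values hold injected and endogenous transcripts together, which the paper states could not be separated. As whole embryos were sampled, fewer cells with a transcript and less transcript per cell cannot be told apart.

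As sums, several lists of region markers differed between the groups. The summed CPM of 9 organizer genes lay between 148 and 194 in *bmp*-overexpressing, between 639 and 667 in *chordin*-overexpressing and between 320 and 341 in uninjected libraries. *foxa3* was the largest part of it. In *chordin*-overexpressing over uninjected embryos 6 of the 9 were called higher, against 0.591% of all genes tested. In *bmp*-overexpressing over uninjected embryos 4 of the 8 organizer genes tested were called lower, against 1.43% of all genes. *foxa2* was higher there without overlap but was not called (1.97-fold, adjusted p = 0.174). The summed CPM of 8 ventral genes lay between 3444 and 3780, between 541 and 563, and between 1504 and 1550 in the same groups. That sum was carried mainly by *ved* and *szl*. In *chordin*-overexpressing over uninjected embryos 6 of the 8 were called lower, against 0.301% of all genes. In *bmp*-overexpressing over uninjected embryos 6 of the 8 were called higher, against 1.72% of all genes. There *vent* was called lower (0.514-fold, adjusted p = 0.00272) and *vox* was not called (0.968-fold). 6 genes of the margin mesoderm summed to between 1966 and 2109 CPM in *bmp*-overexpressing, between 1562 and 1666 in *chordin*-overexpressing and between 1682 and 1714 in uninjected libraries, a sum carried mainly by *ta* and *tbx16*. Of these 6, *ta*, *tbx16* and *aplnrb* were called higher with *bmp* than in uninjected embryos, *msgn1* was called lower (log2 fold change -0.61, adjusted p = 0.0465), and *tbx6l* and *mixl1* were not called. The 7 enveloping layer markers summed to between 6740 and 7352 CPM in *bmp*-overexpressing and between 7737 and 8557 CPM in *chordin*-overexpressing libraries. The uninjected libraries (between 6410 and 9488 CPM) spanned both, and the sum was carried mainly by *krt4* and *krt8*. Singly, *krt5* was called lower with *bmp* than in uninjected embryos (0.735-fold, adjusted p = 0.0031). Against *chordin*-overexpressing embryos *krt4*, *krt5* and *krt8* were called lower with *bmp*, and limma-trend called 1 of the 7 lower. The 4 yolk syncytial layer markers summed to less in every *bmp*-overexpressing library (between 200 and 240 CPM) than in any *chordin*-overexpressing (between 249 and 317) or uninjected library (between 263 and 278). Singly, *mxtx1* and *mxtx2* overlapped between the groups. In *bmp*-overexpressing over uninjected embryos 0 of the 4 were called (limma, with 2 lower at an unadjusted p under 0.05 and 0 by limma-trend). Only *slc26a1* was called lower in *bmp*- over *chordin*-overexpressing embryos. The 6 neural markers also summed to less with *bmp* (between 902 and 1005 CPM) than in *chordin*-overexpressing (between 1068 and 1214) or uninjected libraries (between 1163 and 1308). In *bmp*- over *chordin*-overexpressing embryos 3 of the 6 were called lower, against 2.85% of all genes, and *sox3* had a positive log2 fold change (0.21, adjusted p = 0.135). The part of these differences in the FGF results was not tested.

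Among themselves, the 9 genes differed widely in abundance. Per length, the authors' pooled FPKM in uninjected embryos was highest for *etv4* (151) and *dusp6* (69.4), followed by *il17rd* (36.0) and *spry2* (32.5). The ligands were lower, with 21.1 for *fgf17*, 14.7 for *fgf3*, 13.9 for *fgf8a* and 4.70 for *fgf24*, and *spry4* was at 4.69. These FPKM values carry no replicate spread, so neighbours in this order could not be tested against each other. Of the 9 loci, *fgf8a* was the only gene that shared its position with another row (LOC103912009), which held 7 counts over all libraries against 7522 for *fgf8a*.

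**Figure D1:**
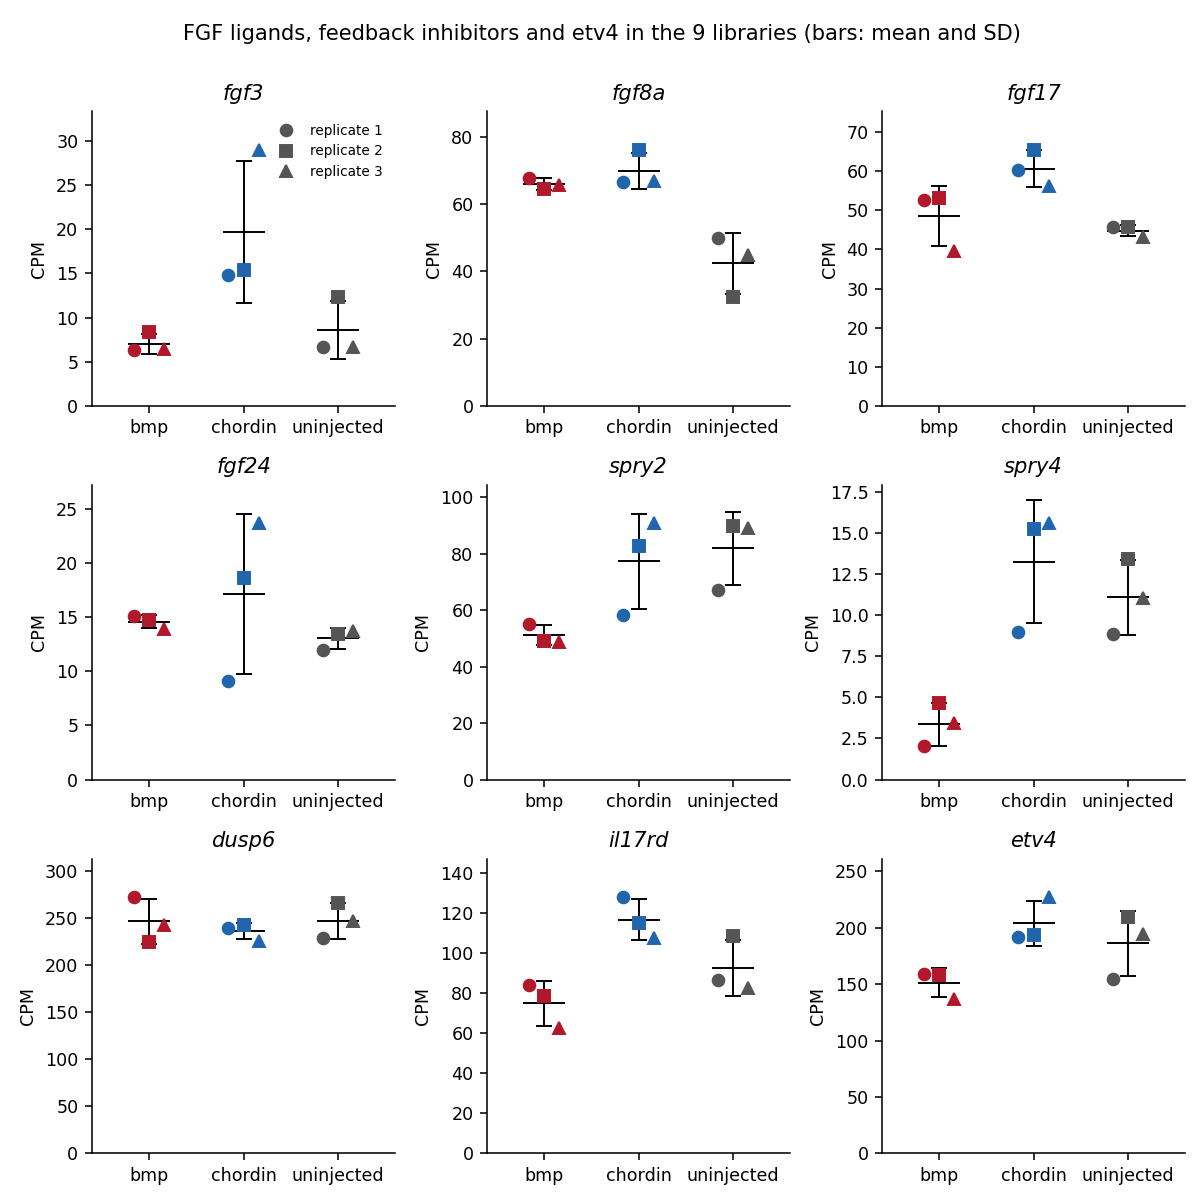
Level in CPM (y axis, from 0) of each of the 9 genes in the *bmp*-overexpressing (red), *chordin*-overexpressing (blue) and uninjected (grey) libraries. Symbols give the replicate number and bars the mean and SD. *fgf8a* is higher in all 6 injected libraries than in any uninjected library, and *spry2* and *spry4* are lower in all 3 *bmp*-overexpressing libraries than in any other.

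In *bmp*-overexpressing embryos, *fgf8a* was 1.64-fold higher than in uninjected embryos, whereas the feedback inhibitors *spry2* and *spry4* were lower, to 0.627-fold and 0.292-fold. The other 6 genes were not called. Thus 3 of 9 genes were called, against 3.15% of the 16779 genes tested, with 1 higher (1.72% of all genes) and 2 lower (1.43%). The groups did not overlap for 4 of the 9, against 18.0% of all genes, with 2 higher (8.96%) and 2 lower (9.02%). The median log2 fold change was -0.29 over the 9 genes and 0.01 over all genes tested.

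In *chordin*-overexpressing embryos, *fgf8a* was again higher than in uninjected embryos (1.71-fold) and was the only one of the 9 genes to be called, against 0.892% of the 16590 genes tested (0.591% higher and 0.301% lower). All 4 ligands had positive log2 fold changes, with a median of 0.59. For 3 of them, *fgf3*, *fgf8a* and *fgf17*, every *chordin*-overexpressing library was above every uninjected library, and none of the 9 was below. Groups did not overlap for 14.5% of all genes, that is 7.25% higher and 7.27% lower. None of the 5 feedback and Ets genes was called (limma, with 1 of the 5 at an unadjusted p under 0.05 and 0 called by limma-trend). The median was 0.31 over the 9 genes and 0.004 over all genes tested. Both comparisons use the same uninjected libraries, so their values are not independent of each other.

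Set directly against each other, *bmp*-overexpressing embryos had less *fgf3*, *spry2*, *spry4*, *il17rd* and *etv4* than *chordin*-overexpressing embryos, and 0 of the 9 genes were called higher (limma, with 0 higher at an unadjusted p under 0.05 and 0 by limma-trend). 5 of 9 genes were thus called, all lower, against 5.04% of the 16735 genes tested in either direction, 2.85% called lower and 2.19% called higher. The groups did not overlap for 6 of the 9, all lower, against 19.3% of all genes (9.84% lower and 9.44% higher). The median log2 fold change was -0.44 over the 9 genes and 0.01 over all genes tested.

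**Figure D2:**
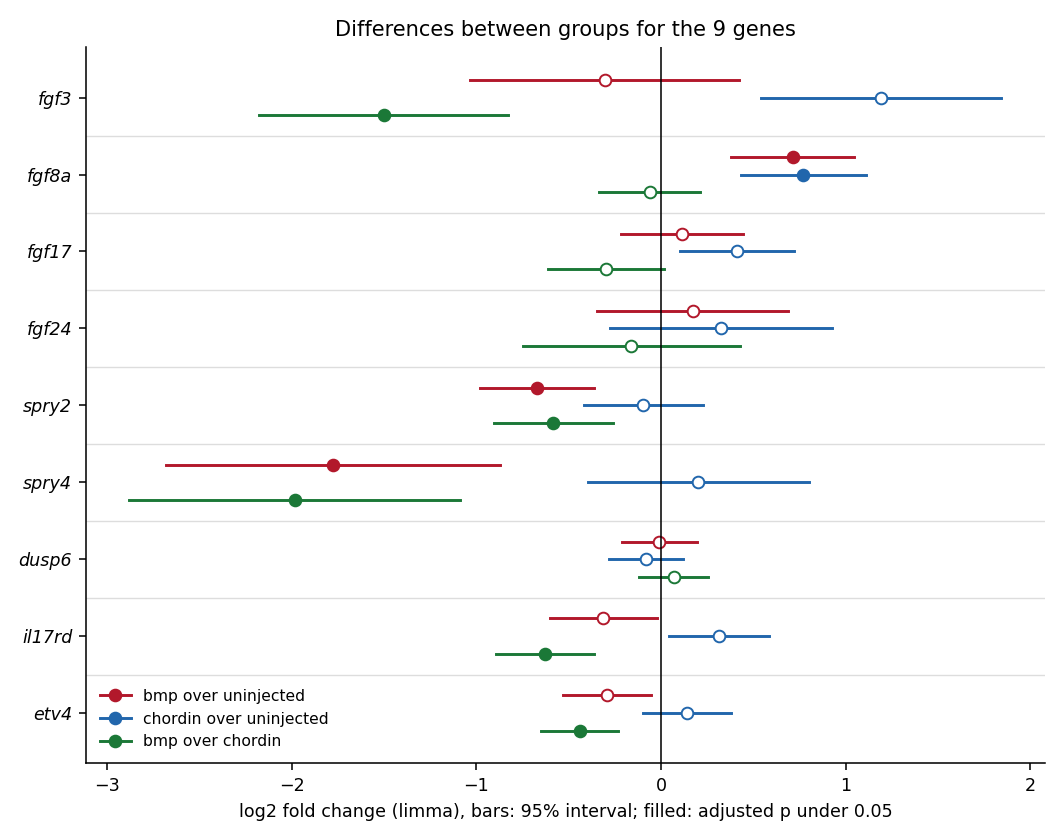
Log2 fold change (x axis) with its 95% interval from limma for the 9 genes in *bmp*-overexpressing over uninjected (red), *chordin*-overexpressing over uninjected (blue) and *bmp*- over *chordin*-overexpressing embryos (green). Filled points passed an adjusted p of 0.05. *fgf8a* is filled on the right in both comparisons with uninjected embryos, and *spry2* and *spry4* are filled on the left in both comparisons that involve *bmp*-overexpressing embryos.

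Among the ligands, *fgf8a* (chromosome 13 of GRCz10, from 28365067 to 28371535) is the zebrafish counterpart of Fgf8 and is the gene mutated in *acerebellar* embryos. It had 67.7, 64.4 and 65.8 CPM in the *bmp*-overexpressing, 66.5, 76.1 and 66.9 in the *chordin*-overexpressing and 49.8, 32.3 and 45.0 CPM in the uninjected libraries. Both injected groups lay above the uninjected group without overlap and overlapped each other. Relative to uninjected embryos the log2 difference was 0.71 for *bmp* (standard error 0.163, adjusted p = 0.00658) and 0.77 with *chordin* (standard error 0.165, adjusted p = 0.0130). Replicate 2 of the uninjected embryos had the lowest level, and both calls were lost without it, with 0.48 for *bmp* (adjusted p = 0.171) and 0.54 for *chordin* (adjusted p = 0.179). The *chordin* call was also lost without replicate 2 of the *chordin*-overexpressing embryos (log2 fold change 0.72, adjusted p = 0.0660). Between *bmp*- and *chordin*-overexpressing embryos the log2 fold change of *fgf8a* was -0.06, with a 95% interval of -0.33 to 0.21 (adjusted p = 0.890).

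*fgf3*, on chromosome 7 from 54336590 to 54338942, encodes a ligand known to act together with Fgf8 in hindbrain and ear development. It had 6.30, 8.33 and 6.45 CPM in *bmp*-overexpressing, 14.8, 15.3 and 29.0 in *chordin*-overexpressing and 6.69, 12.3 and 6.71 CPM in uninjected embryos. All *chordin*-overexpressing libraries were the highest, while the *bmp*-overexpressing and uninjected libraries overlapped. The log2 fold change of *bmp*- over *chordin*-overexpressing embryos was -1.50 (standard error 0.331, adjusted p = 0.00329). This call rested on replicate 3 of the *chordin*-overexpressing embryos, the highest library, without which the value was -1.10 (adjusted p = 0.0772). For *chordin*-overexpressing over uninjected embryos it was 1.19 (standard error 0.318), just outside the threshold (adjusted p = 0.0747). The 12 refits gave adjusted p-values from 0.00426 to 0.484, of which 4 were past the threshold, among them those without replicate 1 of the *chordin*-overexpressing embryos (0.0243) and without replicate 2 of the uninjected embryos (0.0148). *bmp*-overexpressing and uninjected embryos differed by -0.31 (95% interval -1.03 to 0.42, adjusted p = 0.784), and the sign changed without replicate 2 of the uninjected embryos (0.07).

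*fgf17* (chromosome 8, from 52745818 to 52759390) belongs to the same subfamily of ligands as *fgf8a*. It had 52.6, 53.2 and 39.6 CPM in *bmp*-overexpressing, 60.2, 65.5 and 56.1 in *chordin*-overexpressing and 45.6, 45.7 and 43.1 CPM in uninjected embryos. The *chordin*-overexpressing libraries were the highest, without overlap, but none of the 3 comparisons passed the threshold. The log2 fold change was 0.12 for *bmp*-overexpressing over uninjected embryos (adjusted p = 0.825), 0.41 for *chordin*-overexpressing over uninjected embryos (adjusted p = 0.305) and -0.30 for *bmp*- over *chordin*-overexpressing embryos (adjusted p = 0.383).

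*fgf24*, on chromosome 14 from 5200094 to 5239997, encodes a ligand that is required together with Fgf8 for posterior mesoderm in zebrafish. It had 15.1, 14.7 and 13.9 CPM in the *bmp*-overexpressing, 9.12, 18.6 and 23.6 in the *chordin*-overexpressing and 11.9, 13.4 and 13.7 CPM in the uninjected libraries. The *bmp*-overexpressing libraries were all slightly above the uninjected ones, and the *chordin*-overexpressing libraries spanned both groups. The log2 fold changes of 0.17 with *bmp* (adjusted p = 0.835) and 0.32 with *chordin* (adjusted p = 0.781) over uninjected embryos did not pass the threshold. Without replicate 3 of the *chordin*-overexpressing embryos the value with *chordin* was -0.07.

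Of the feedback inhibitors, *spry4* (chromosome 21, from 44605062 to 44610571) showed the largest difference. Sprouty proteins such as Spry2 and Spry4 act inside the cell and limit the activation of Erk by receptor tyrosine kinases. *spry4* had only 28, 70 and 43 counts in the *bmp*-overexpressing libraries, which is 2.05, 4.66 and 3.42 CPM. It had 8.97, 15.2 and 15.6 CPM in *chordin*-overexpressing and 8.85, 13.4 and 11.05 CPM in uninjected libraries. Every *bmp*-overexpressing library was below every other library, and the *chordin*-overexpressing and uninjected groups overlapped. The log2 fold change of *bmp*-overexpressing embryos was -1.78 over uninjected (standard error 0.443, adjusted p = 0.0151) and -1.98 over *chordin*-overexpressing embryos (standard error 0.438, adjusted p = 0.00338). Over the 12 refits, the comparison with uninjected embryos stayed between -2.08 and -1.46 and passed in 10. Both misses were fits with 1 library left out, namely replicate 1 (adjusted p = 0.143) or replicate 3 (adjusted p = 0.0557) of the *bmp*-overexpressing embryos. Without replicate 2 of the uninjected embryos the value lay at the threshold (-1.59, adjusted p = 0.05).

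*spry2*, on chromosome 1 from 4557477 to 4561653, was more abundant. It had 55.2, 49.2 and 48.8 CPM in *bmp*-overexpressing, 58.4, 82.9 and 90.7 in *chordin*-overexpressing and 67.0, 89.7 and 89.1 CPM in uninjected embryos. The *bmp*-overexpressing libraries were again the lowest, and replicate 1 was the lowest library of both other groups. *bmp*-overexpressing over uninjected embryos differed by -0.67 on the log2 scale (standard error 0.151, adjusted p = 0.00546), and it passed in all 12 refits. Over *chordin*-overexpressing embryos it was -0.58 (standard error 0.158, adjusted p = 0.0224), and this call was lost in 5 of 12 refits. These were the fit with no low-count filter (adjusted p = 0.0520) and those without replicate 2 (0.0654) or 3 (0.0585) of the *bmp*-overexpressing or replicate 2 (0.0513) or 3 (-0.42, adjusted p = 0.271) of the *chordin*-overexpressing embryos. *chordin*-overexpressing and uninjected embryos differed by -0.10 (95% interval -0.42 to 0.23).

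*il17rd* (chromosome 11, from 42352132 to 42429269) encodes Sef, a transmembrane inhibitor of FGF signaling. It had 84.1, 78.6 and 62.5 CPM in *bmp*-overexpressing, 128, 115 and 107 in *chordin*-overexpressing and 86.6, 109 and 82.5 CPM in uninjected embryos. The uninjected libraries lay between the 2 injected groups and overlapped both. *bmp*-overexpressing embryos differed from *chordin*-overexpressing embryos by -0.63 on the log2 scale (standard error 0.129, adjusted p = 0.00156), past the threshold in all 12 refits. Neither group alone was called against uninjected embryos, with -0.31 for *bmp* (adjusted p = 0.333) and 0.31 for *chordin* (adjusted p = 0.408).

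*dusp6*, on chromosome 25 from 18229898 to 18234103, encodes a phosphatase that inactivates Erk. It had 272, 224 and 243 CPM in *bmp*-overexpressing, 239, 242 and 226 in *chordin*-overexpressing and 228, 266 and 246 CPM in uninjected embryos. All 3 groups overlapped. The log2 fold change was -0.01 with *bmp* (95% interval -0.21 to 0.19) and -0.08 with *chordin* (-0.28 to 0.12) over uninjected embryos, and 0.07 for *bmp*- over *chordin*-overexpressing embryos (-0.12 to 0.25). These intervals leave room for differences of up to about 0.28 on the log2 scale in size.

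*etv4* (chromosome 12, from 27444729 to 27477334), also known as *pea3*, encodes a transcription factor of the Pea3 group whose expression follows FGF activity. It had 159, 158 and 137 CPM in *bmp*-overexpressing, 191, 194 and 227 in *chordin*-overexpressing and 154, 209 and 195 CPM in uninjected embryos. The *bmp*-overexpressing libraries were all below the *chordin*-overexpressing ones, and replicate 1 of the uninjected embryos was as low as the *bmp*-overexpressing libraries. The log2 fold change of *bmp*- over *chordin*-overexpressing embryos was -0.44 (standard error 0.103, adjusted p = 0.00591), and the call was lost without replicate 3 of the *chordin*-overexpressing embryos (-0.35, adjusted p = 0.0874). Against uninjected embryos the value was -0.29 with *bmp* (adjusted p = 0.243) and 0.14 with *chordin* (adjusted p = 0.751). Without replicate 1 of the uninjected embryos the difference with *bmp* was -0.43 and passed (adjusted p = 0.00613).

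**Figure D3:**
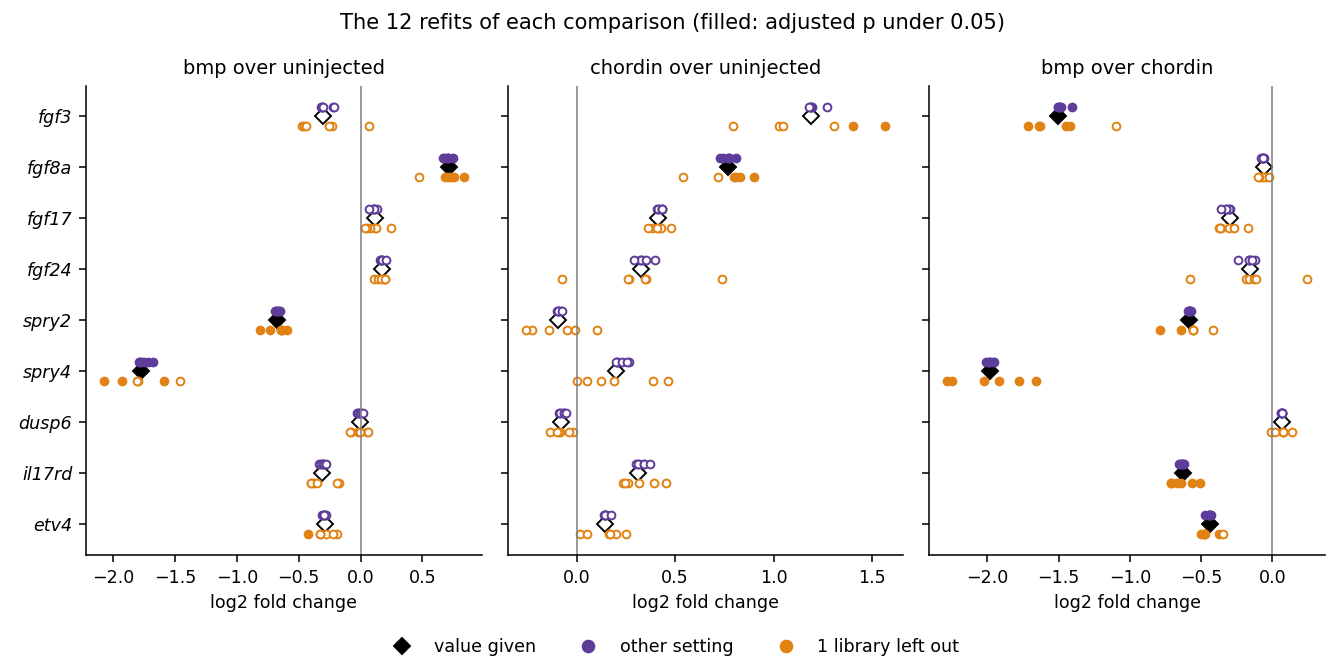
Log2 fold changes (x axis) of the 9 genes in the 3 comparisons, as given in the text (black diamonds), under 6 other settings (purple) and with each of the 6 libraries left out (orange). Filled symbols passed an adjusted p of 0.05. The values of *spry2* and *spry4* in *bmp*-overexpressing over uninjected embryos stay below 0 throughout, and *fgf8a* in both comparisons with uninjected embryos is least when replicate 2 of the uninjected embryos is left out.

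The ligands and the genes that report on the pathway are placed side by side here. In *bmp*-overexpressing embryos, 1 of 4 ligands was higher than in uninjected embryos while 0 of the 5 feedback and Ets genes were higher (limma, with 0 higher at an unadjusted p under 0.05 and 0 by limma-trend) and 2 were lower. Of all genes tested, 1.72% were called higher and 1.43% lower in that comparison. The median log2 fold change was 0.14 over the ligands and -0.31 over the feedback and Ets genes. In *chordin*-overexpressing embryos these medians were 0.59 and 0.14. Between *bmp*- and *chordin*-overexpressing embryos, 1 of 4 ligands (*fgf3*) and 4 of 5 feedback and Ets genes were lower with *bmp*, against 2.85% of all genes, with medians of -0.23 and -0.58. The difference between the ligands and the feedback genes was not tested, and 4 or 5 genes chosen with earlier results known are not replicates.

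The wider pathway was examined with 5 lists that held 72 other genes, of which 69 had a row of their own and 48 were abundant enough to be tested in at least 1 comparison. 9 of them were called in at least 1 of the 3 comparisons. In *bmp*-overexpressing over uninjected embryos 2 were higher and 3 lower (3.15% of all genes called), in *chordin*-overexpressing over uninjected embryos 0 were called (limma, with 8 at an unadjusted p under 0.05 and 0 called by limma-trend, and 0.892% of all genes called), and in *bmp*- over *chordin*-overexpressing embryos 1 was higher and 7 lower (5.04% of all genes called). The median log2 fold changes of these lists together were -0.07, 0.06 and -0.06 in the 3 comparisons, against 0.01, 0.004 and 0.01 over all genes tested. Of the 20 other ligands 2 passed the low-count filter, with 0 called in any comparison (limma, with 0 at an unadjusted p under 0.05 and 0 by limma-trend).

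Of the 6 receptors tested in *bmp*-overexpressing over uninjected embryos, 1 (*fgfr4*) had a positive and 5 a negative log2 fold change. There 1 was called higher and 1 lower, against 1.72% and 1.43% of all genes. In *bmp*- over *chordin*-overexpressing embryos 1 was called higher and 2 lower, against 2.19% and 2.85% of all genes. *fgfr4* stood at 437, 427 and 423 CPM in *bmp*-overexpressing, 249, 272 and 259 in *chordin*-overexpressing and 256, 269 and 296 CPM in uninjected embryos. Its level was 1.58-fold higher in *bmp*-overexpressing than in uninjected embryos (log2 fold change 0.66, standard error 0.0867, adjusted p = 1.99e-06). *fgfr1a* had 26.8, 17.2 and 19.3 CPM in *bmp*-overexpressing, 41.7, 43.4 and 46.9 in *chordin*-overexpressing and 36.1, 46.0 and 64.3 CPM in uninjected embryos, and was lower in *bmp*-overexpressing than in uninjected embryos (log2 fold change -1.18, adjusted p = 0.000695). For both receptors the *bmp*-overexpressing libraries stood apart from all others without overlap, and both calls passed in all 12 refits. *fgfr2* was at 4.47, 6.86 and 4.38 CPM with *bmp*, against 13.1, 9.43 and 13.0 CPM in the *chordin*-overexpressing libraries, a difference that passed (log2 fold change -1.21, adjusted p = 0.0393) but was lost in 7 of 12 refits, including those without replicate 1 (0.166) or 3 (0.124) of the *bmp*-overexpressing and replicate 1 (0.0840) or 3 (0.155) of the *chordin*-overexpressing embryos.

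Among other feedback regulators and Ets factors, *dusp4*, *spry1*, *dusp1* and *ets2* were lower in *bmp*- than in *chordin*-overexpressing embryos. These were 3 of 11 other feedback regulators and 1 of 9 other Ets factors tested, against 2.85% of all genes called lower. Log2 fold changes of the 9 Ets factors were positive for 4 and negative for 5. *etv5a* (0.33, adjusted p = 0.215) and *erf* (0.27, adjusted p = 0.0997) were higher with *bmp* without overlap but were not called. *etv5b* (-0.22, adjusted p = 0.103) and *elk1* (-0.94, adjusted p = 0.465) were lower with *bmp* without overlap and were not called either. *dusp4*, which encodes another phosphatase of MAP kinases, averaged 24.6 ± 2.15 CPM in *bmp*-overexpressing, 64.0 ± 12.8 in *chordin*-overexpressing and 46.1 ± 5.94 CPM in uninjected embryos (SD, n = 3 each). It was lower in *bmp*-overexpressing than in uninjected embryos (log2 fold change -0.89, adjusted p = 0.00252) and than in *chordin*-overexpressing embryos (-1.38, adjusted p = 3.6e-06). *ets2*, which encodes an Ets factor outside the Pea3 group, averaged 78.8 ± 1.80 CPM in *bmp*-overexpressing, 154 ± 5.50 in *chordin*-overexpressing and 140 ± 21.9 CPM in uninjected embryos (SD, n = 3 each). It too was lower with *bmp* than in uninjected embryos (log2 fold change -0.78, adjusted p = 0.000175). *spry1*, the third Sprouty gene tested, had 8.20, 9.19 and 8.28 CPM in *bmp*-overexpressing, 14.996, 23.8 and 18.4 in *chordin*-overexpressing and 16.0, 17.0 and 17.8 CPM in uninjected embryos. The *bmp*-overexpressing libraries of *spry1* did not overlap those of either other group. Its value of -0.97 against uninjected embryos lay at the threshold (adjusted p = 0.0506, past it in 5 of 12 refits) and that of -1.08 against *chordin*-overexpressing embryos passed (adjusted p = 0.0158). The call against *chordin*-overexpressing embryos was lost without replicate 1 of the *bmp*-overexpressing (0.0722) or replicate 2 (0.0688) or 3 (0.0528) of the *chordin*-overexpressing embryos.

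*spred2b*, which encodes a Sprouty-related inhibitor of Ras signaling, went the other way. It averaged 30.9 ± 1.90 CPM in *bmp*-overexpressing, 26.9 ± 4.87 in *chordin*-overexpressing and 16.3 ± 1.81 CPM in uninjected embryos (SD, n = 3 each). Relative to uninjected embryos the log2 difference was 0.94 with *bmp* (adjusted p = 0.00475) and 0.69 with *chordin* (adjusted p = 0.204), and like *fgf8a* it did not differ detectably between the 2 injected groups (log2 fold change 0.25, adjusted p = 0.619). *dusp1*, which encodes a MAP kinase phosphatase, was at 84.1, 82.6 and 97.5 CPM with *bmp*. It had 141, 157 and 136 CPM in the *chordin*-overexpressing libraries (log2 fold change of *bmp* over *chordin* -0.70, adjusted p = 8.13e-05). Uninjected libraries had 103, 114 and 110 CPM of *dusp1*. Neither injected group was called against them, with -0.31 for *bmp* (adjusted p = 0.242) and 0.39 for *chordin* (adjusted p = 0.136). Of the 20 cytoplasmic transduction genes tested, *kras* was the only one called in any comparison, with 21.1, 12.9 and 20.1 CPM under *bmp*, against 33.2, 27.7 and 30.2 CPM in the *chordin*-overexpressing libraries (log2 fold change -0.81, adjusted p = 0.0238). That call was lost with no low-count filter (0.0610) and without replicate 2 of the *bmp*-overexpressing (0.247) or replicate 1 (0.0585) or 3 (0.0647) of the *chordin*-overexpressing embryos.

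**Figure D4:**
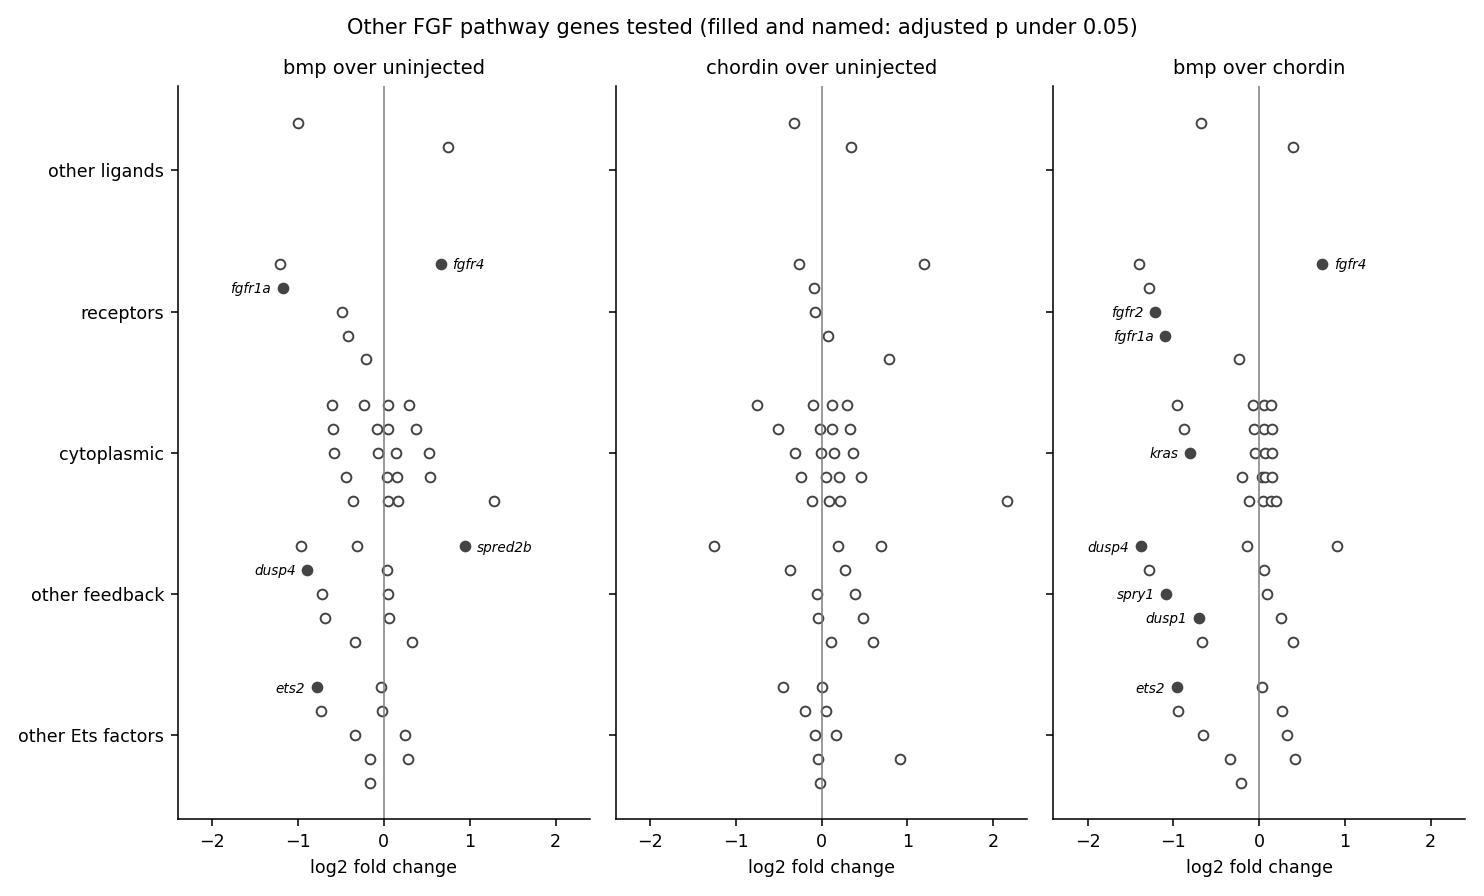
Log2 fold changes (x axis) of the 48 other FGF pathway genes tested, by list (y axis; vertical offsets within a list only separate points), in the 3 comparisons. Filled, named points passed an adjusted p of 0.05. In *bmp*-overexpressing over uninjected embryos *fgfr4* and *spred2b* are on the right and *fgfr1a*, *dusp4* and *ets2* on the left, and no point is filled in *chordin*-overexpressing over uninjected embryos.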

How the data were processed

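Poly(A) RNA of 9 samples was sequenced from a kit that does not keep strand. The authors aligned the reads to GRCz10 with STAR 2.4.1b and deposited unnormalized read counts in 3 tables of 6 libraries, with commas inside the numbers. The deposited tables also hold FPKM, 1 value a group from the authors' Cuffdiff, used here only for the order of levels, and the fold changes, p-values and calls of their own tests, which were not used. HTSeq is listed in the submitters' processing notes with no role given.

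The commas were removed and the whole-number counts were tested with limma 3.58.1 (voom) in R 4.3.3; no count model was run. TMM factors trimmed 30% of fold changes and 5% of levels. A gene was tested if its CPM was worth 10 counts at the median depth in as many libraries as the smaller group holds, with 15 counts or more in all. Each fit held the 6 libraries of its comparison. Libraries repeated between tables were identical. Between pairs of replicates, chi-square over its degrees of freedom was 11.4 to 32.3. This is variance relative to sampling noise, pooled over genes, and not a fold difference between libraries. On simulated counts for *bmp* over uninjected (16279 genes, 199 of them changed), 81.4% of 4-fold and 45.1% of 2-fold changes were called, and 3.1% of the calls were false. The simulation gave all genes of a similar level the same spread, taken from the uninjected libraries. It changed no genes of low count, so these rates need not hold for the real libraries.

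The genes and lists were chosen with earlier results of these data known. All 9 genes are named, as is each called gene of the 5 pathway lists. For a called gene of the 9, the 2 genes of nearest pattern are given, by the root mean square difference of log2 CPM centred on uninjected embryos. *spry3* was not matched, and *sos1* and *etv1* stand in rows joined with another gene, so none of these was analysed. The 12 refits were no low-count filter, RLE factors, a fit of all 3 groups, the replicate number as a block, limma-trend (prior count 2), thinning of libraries to 8861308 counts and each of 6 libraries left out. An adjusted p under 0.01 was tried for the counts of calls. pandas 2.3.3, Python 3.11.15 and matplotlib 3.10.9 were used. No sequences are shown.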

Additional observations from a re-analysis of the deposited data

How the results depend on the processing

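Of 648 refitted log2 fold changes (the 9 genes and the 9 other pathway genes named), 600 kept direction and call, 26 lost a call, 11 gained one and 11 changed sign, the last all among values that were not called. For *dusp6*, *bmp* over uninjected, the sign changed with limma-trend (0.003) and thinning (0.016), and values without 1 library ran from -0.087 to 0.059. Leaving out 1 library also spanned 0 for *fgf3*, *bmp* over uninjected (-0.477 to 0.067), for *fgf24* (-0.074 to 0.738), *spry2* (-0.259 to 0.102), *fgfr1a* (-0.254 to 0.091) and *spry1* (-0.01 to 0.259) in *chordin* over uninjected, and for *fgf24* (-0.577 to 0.244) and *dusp6* (-0.006 to 0.138) in *bmp* over *chordin*. With 1 library left out, 2 to 4 of the 9 genes were called in *bmp* over uninjected, 0 to 2 in *chordin* over uninjected and 2 to 5 in *bmp* over *chordin*, where 2 were left without replicate 3 of the *chordin*-overexpressing embryos. Over all genes the counts of calls ran from 371 to 876 in *bmp* over uninjected, highest without replicate 1 of the uninjected embryos, from 110 to 387 in *chordin* over uninjected, highest without the same library, and from 645 to 841 in *bmp* over *chordin*. At an adjusted p under 0.01, *chordin* over uninjected kept 0 of the 9 genes and 88 of all genes, and *bmp* over *chordin* kept 557 of all genes. In *chordin* over uninjected, 2 of the 9 genes and 197 of all genes were called with all 3 groups in the fit, against 1 and 148 with the 2 groups alone. The cause of these shifts was not tested.

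Deviations of same-numbered libraries from their group means correlated at -0.01 to 0.06. With 3 libraries a group, this cannot decide whether replicate numbers pair the samples. With the replicate number as a block, 3 of the 9 genes were called in *bmp* over uninjected, 2 in *chordin* over uninjected and 5 in *bmp* over *chordin*. Over all genes 721, 307 and 964 were called, against 528, 148 and 843 without the block. Each *bmp*-overexpressing library correlated best with the uninjected library of its own number, at only 0.01 to 0.02. The other comparisons did not follow the number throughout. *chordin*-overexpressing libraries 1, 2 and 3 correlated best with uninjected libraries 1, 1 and 2. *bmp*-overexpressing libraries 1, 2 and 3 correlated best with *chordin*-overexpressing libraries 1, 2 and 1. The lowest count behind any value of the 9 genes was 28, for *spry4* in 1 *bmp*-overexpressing library. The libraries differed in depth by 2.52 times.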

Other observations

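The genes nearest in pattern to the called ones, over 9 libraries and 15669 other genes compared, are given as a description with no test. Nearest to *fgf8a* were zgc:110699 (root mean square difference 0.16 on the log2 scale) and *rnd3a* (0.17), and *rnd3a* averaged 19.4 CPM in *bmp*-overexpressing, 19.8 in *chordin*-overexpressing and 13.1 in uninjected embryos. Nearest to *fgf3* were *arl4ab* (0.30) and the anterior neural transcription factor gene *otx1b* (0.35), and *otx1b* averaged 16.0 CPM in *bmp*-overexpressing, 52.6 in *chordin*-overexpressing and 21.5 in uninjected embryos. For *spry4* they were *onecutl* (0.31) and *cmtm7* (0.39), and *cmtm7* averaged 5.15 CPM in *bmp*-overexpressing, 25.4 in *chordin*-overexpressing and 23.1 in uninjected embryos. *spry2* was closest to *ube3d* and *pbx4* (0.16 each), *il17rd* to *uri1* (0.10) and *ctss2.1* (0.12), and *etv4* to zgc:55558 and the connexin gene *cx43.4* (0.09 each).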
